A study of Mus musculus with 22 samples.

Results

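The 6 genes described here encode the metallothioneins Mt1 and Mt2, the zinc transporters Slc39a14 and Slc30a1, and the hepcidins Hamp and Hamp2. They were taken by symbol from the 24475 genes of the deposited table, and all 6 were above the filter on low values, a mean of at least 0.5 RPKM (reads scaled to transcript length and library depth), which left 11590 genes. Polyadenylated liver RNA was sequenced in 22 strand-specific libraries from wild type (WT) mice and from mice without the proglucagon gene (Gcg KO), the source of glucagon and of the glucagon-like peptides. Without infusion there were 3 libraries per genotype (1 to 3 WT, 4 to 6 Gcg KO). Mice infused with glucagon (Gcg in the labels) gave 4 libraries per genotype and dose, at 30 µg/d (7 to 10 WT, 11 to 14 Gcg KO) and at 150 µg/d (15 to 18 WT, 19 to 22 Gcg KO). The sources used here do not state how the Gcg allele was made, the sex, age or strain of the mice, or the route and length of infusion. The labels name no vehicle infusion, so glucagon and the infusion itself cannot be told apart in a comparison with uninfused mice. They also do not say that each library came from a separate mouse, so the p-values reflect only how far the sequenced libraries of a group differed.

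Metallothioneins are small cysteine-rich proteins that bind zinc and copper, and in liver their genes respond to metals through the zinc sensor Mtf1, to glucocorticoids and to inflammatory cytokines. Slc39a14 carries zinc, manganese and iron not bound to transferrin into hepatocytes and is known to rise in the acute phase response, while Slc30a1 moves zinc out across the plasma membrane. Hepcidin, the product of Hamp, is the liver hormone that closes the iron exporter ferroportin, and its gene is driven by iron through BMP-SMAD signals and by interleukin 6 through Stat3; Hamp2 is a duplicate found in mice.

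In the RefSeq annotation of GRCm38.p6, Mt2 (chr8:94172618-94173567) ends 5315 bases before Mt1 (chr8:94178883-94180327), and Hamp2 (chr7:30922372-30924181) ends 18186 bases before Hamp (chr7:30942368-30944029). Slc39a14 is at chr14:70303467-70351452 and Slc30a1 at chr1:191906697-191913248. The stretches below lie directly upstream of the start in the RefSeq promoter table and are shown because the metallothioneins varied closely together across libraries and the hepcidins did not. They are Mt1 chr8:94179059-94179088 and Mt2 chr8:94172368-94172617 on the plus strand, and Hamp chr7:30944030-30944279 and Hamp2 chr7:30924182-30924431 on the minus strand. Capitals mark the metal response element core, TGCACNC or TGCGCNC on either strand, in the metallothioneins, and the BMP-SMAD element GGCGCC and the STAT site TTCNNNGAA in the hepcidins.
Mt1: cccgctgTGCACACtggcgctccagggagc
Mt2: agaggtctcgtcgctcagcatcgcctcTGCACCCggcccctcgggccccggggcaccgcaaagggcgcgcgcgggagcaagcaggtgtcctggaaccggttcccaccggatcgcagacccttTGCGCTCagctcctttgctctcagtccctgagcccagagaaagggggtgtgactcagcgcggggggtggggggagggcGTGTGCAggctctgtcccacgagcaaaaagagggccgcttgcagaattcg
Hamp: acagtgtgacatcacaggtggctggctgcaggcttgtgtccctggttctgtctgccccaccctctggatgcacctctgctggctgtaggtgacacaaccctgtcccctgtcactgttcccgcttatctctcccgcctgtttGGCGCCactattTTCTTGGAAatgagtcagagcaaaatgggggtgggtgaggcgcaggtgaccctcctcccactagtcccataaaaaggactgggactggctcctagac
Hamp2: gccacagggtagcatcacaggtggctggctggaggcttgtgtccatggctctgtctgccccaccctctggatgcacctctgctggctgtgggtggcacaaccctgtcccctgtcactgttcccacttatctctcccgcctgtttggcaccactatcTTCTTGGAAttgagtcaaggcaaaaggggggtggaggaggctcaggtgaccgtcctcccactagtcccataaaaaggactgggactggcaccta
In the table's windows, which run from 250 bases before the start to 50 after it, Mt1 had 3 metal cores, Mt2 had 4, Slc30a1 had 2, and the hepcidins had 0. At least 1 core occurred in 25.7% of all 32851 windows and 3 or more in 1.97%. Only the last 30 upstream bases of Mt1 are printed, since the gene in RefSeq reaches past the start used by the table. All motif matches counted for Mt1 lie inside that RefSeq gene. The STAT site occurred 1 time in Hamp and 1 time in Hamp2 (8.3% of all windows). The BMP-SMAD element was in Hamp only (11.9% of all windows), and Hamp2 differed from it by G4A, counted from 1 at the 5′ end of the element. Upstream of the start, Hamp and Hamp2 were identical at 227 of 247 aligned bases (91.9%). For Mt1 and Mt2 it was 124 of 219 (56.6%). Most of the Mt1 stretch lies inside the RefSeq gene, so this share does not compare promoters. The full cAMP response element TGACGTCA was in 0 of the 5 members' windows (1.8% of all windows), and its shorter core TGACG occurred 1 time, in Mt1 (20.8%). Slc39a14 was not in the promoter table. These matches describe letters and say nothing of binding.

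No read counts were used; the steps between low values gave an estimated depth of 11.1 to 17.7 M reads per library (median 13.7 M). At that depth the lowest values rest on about 67 reads for Mt1, 8 for Mt2, 905 for Hamp and 10 for Hamp2. Spearman's rho between libraries of a group was 0.949 to 0.989 over the 11590 genes above the filter. Libraries 4 (uninfused Gcg KO) and 13 (Gcg KO, 30 µg/d) stood apart: the mean log2(RPKM + 1) of 16 genes known to be higher in male than in female liver was 4.22 and 5.69 there and 6.83 to 8.79 in the other 20 libraries. Of 10 hepatocyte markers, 9 were in the table and summed to between 40690 and 83290 RPKM, and of 6 pancreas markers 4 (Prss1, Cpa1, Ins1 and Ins2) were listed at 0 in all 22 libraries. Of the others, Amy2a5 was at 0 in 21 libraries, but Cela1 was above the filter. The 6 pancreas markers summed to between 3.007 and 17.24 RPKM per library, so they were not absent as a list.

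By group mean, the metallothioneins were lowest in Gcg KO liver at 30 µg/d and highest in Gcg KO liver at 150 µg/d. The lowest place was not firm. Against uninfused Gcg KO, 30 µg/d gave −1.03 log2 units for Mt1 and −0.31 for Mt2, and neither passed the test. Without library 4 these values were 0.341 and 0.804. Mt1 averaged 31.0 ± 4.63 RPKM (SD, n = 4) at the lower dose and 1010 ± 754 (n = 4) at the higher one. The 4 libraries at 30 µg/d were at 33.1, 36.5, 27.8 and 26.6 RPKM, and the 4 at 150 µg/d at 1970, 139.8, 859.4 and 1071. All libraries at the higher dose were above all at the lower dose, with library 20 far below its group. Mt1 rose by 4.49 ± 0.877 (log2 fold change ± SE, on the log2(RPKM + 1) scale used throughout; 22.4-fold) between the doses in Gcg KO, with a Benjamini-Hochberg adjusted p of 0.0239 in limma. It was the only 1 of the 6 members called in this comparison, in which 0.544% of the tested genes were called and 3 members had an unadjusted p under 0.05. Groups did not overlap for 2 members, Mt1 and Slc39a14, against 6.29% of tested genes. The Mt1 call ended without library 11 (adjusted p = 0.0638), 12 (0.0779), 14 (0.0830), 21 (0.0986) or 22 (0.0992), with no filter on low values (0.0539) and with the groups compared fitted alone (0.0746), while the difference itself stayed between 3.996 and 5.265 when single libraries were left out. Without libraries 4 and 13 it was 4.44 (adjusted p = 0.00839).

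Mt2 showed the same order. In Gcg KO it was at 10.1, 21.8, 10.6 and 9.88 RPKM at 30 µg/d and at 1738, 17.29, 610.9 and 717.6 at 150 µg/d. Library 20, at 17.29, was the only library of the higher dose that fell within the range of the lower dose. The difference of 4.69 ± 1.14 log2 units (25.7-fold) had an adjusted p of 0.0671. Without library 20 it was 6.10 (adjusted p = 0.00525) and with array weights, which give scattered libraries less say, it was 4.49 (0.0161).

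**Figure D1:**
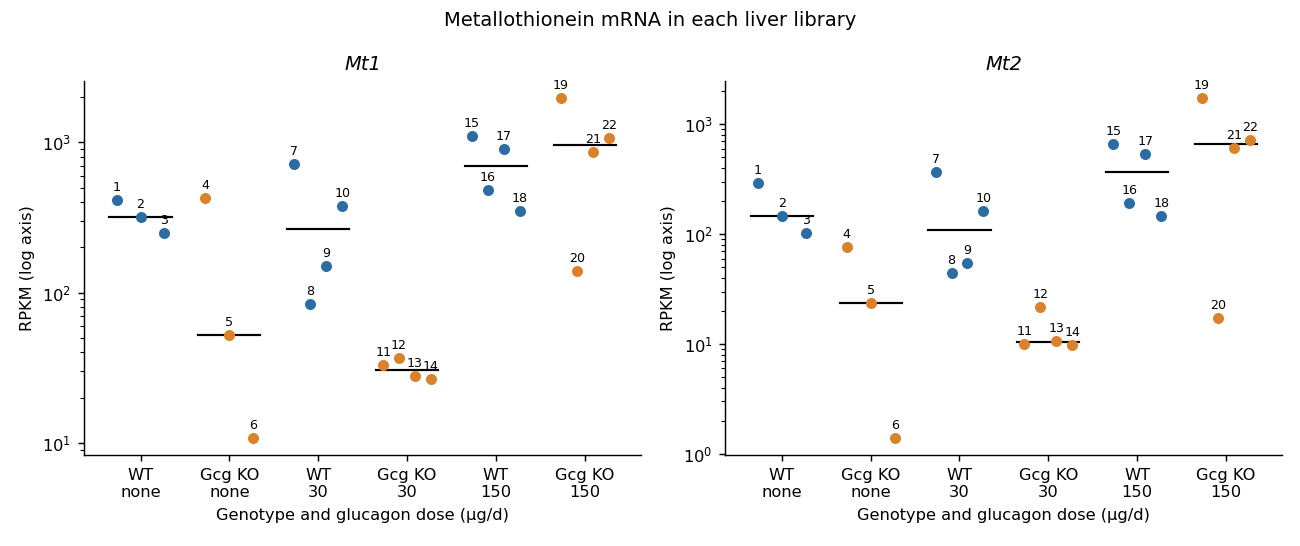
Level of Mt1 (left) and Mt2 (right) in RPKM on log axes in each liver library, by genotype and glucagon dose; blue points are WT, orange points Gcg KO, numbers name the libraries and bars are group medians. The 4 Gcg KO libraries at 30 µg/d lie between 26.6 and 36.5 RPKM for Mt1, and library 20 stands below the other Gcg KO libraries at 150 µg/d for both genes.

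Uninfused Gcg KO livers differed widely from each other in both metallothioneins. Mt1 was at 428.8, 52.6 and 10.7 RPKM in libraries 4, 5 and 6, and Mt2 at 77.2, 23.6 and 1.384. The uninfused WT livers were at 410.1, 316.3 and 248.0 for Mt1 and at 293.4, 145.4 and 103.2 for Mt2. Library 4 reached the WT level of Mt1 but not that of Mt2, while library 6 held the lowest value of the 22 for both genes. The KO against WT difference was −2.30 ± 1.01 log2 units for Mt1 (adjusted p = 0.244) and −3.31 ± 1.32 for Mt2 (0.194), so neither passed the test. Without library 4 the differences were −3.67 and −4.43, and without library 6 they were −1.07 and −1.91. Of the 6 members 0 were called in this comparison by limma, with 2 at an unadjusted p under 0.05, against 1.54% of tested genes called. The genotypes did not overlap for 2 members, Mt2 and Slc30a1, against 24.8% of tested genes.

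At 30 µg/d the genotypes did not overlap for either metallothionein. WT livers held 712.5, 84.4, 151.1 and 378.8 RPKM of Mt1 and 366.6, 44.8, 54.7 and 164.2 of Mt2, and the lowest of these were above every Gcg KO value given for this dose. The difference was −2.94 ± 0.877 log2 units for Mt1 (0.130 of the WT level, adjusted p = 0.162) and −3.06 ± 1.14 for Mt2 (adjusted p = 0.278). Here 0 of the 6 members were called by limma, 2 had an unadjusted p under 0.05, and 0.328% of tested genes were called; the 2 members without overlap compare with 6.32% of tested genes. At 150 µg/d the WT livers were at 1095, 483.5, 907.7 and 348.9 RPKM of Mt1 and at 667.8, 191.5, 541.8 and 147.5 of Mt2. The genotypes overlapped at this dose, and differed by 0.15 ± 0.877 log2 units for Mt1 and 0.11 ± 1.14 for Mt2 (adjusted p = 1 for both). The 95% interval for Mt1 ran from −1.68 to 1.98, so differences of nearly that size in either direction were not detectable.

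Against uninfused liver, 150 µg/d gave differences of 3.46 ± 0.947 log2 units for Mt1 (11-fold, adjusted p = 0.0571) and 4.37 ± 1.23 for Mt2 (20.7-fold, 0.0639) in Gcg KO. Neither passed the test, and 0 of the 6 members did in limma, with 3 at an unadjusted p under 0.05 and 2.72% of tested genes called. Groups overlapped for all 6 members, while 13.5% of tested genes did not overlap. Mt1 was called without library 4 (4.83, adjusted p = 0.0159), without library 20 (4.24, 0.0263), without libraries 4 and 13 (4.83, 0.0162) and with array weights (3.77, 0.0116); it was 2.23 without library 6. Mt2 was called without library 20 (5.78, 0.00555) and with array weights (4.39, 0.0265). In WT the same dose gave 1.01 ± 0.947 for Mt1 (2.01-fold, adjusted p = 0.710) and 0.95 ± 1.23 for Mt2 (0.811). In WT 0 of the 6 members were called or had an unadjusted p under 0.05 in limma, against 0.293% of tested genes called, and 0 were without overlap, against 14.5%. The responses of the 2 genotypes differed by 2.45 ± 1.34 log2 units for Mt1 (adjusted p = 0.540) and by 3.42 ± 1.74 for Mt2 (0.516), and 0 of the 6 members, as 0% of tested genes, passed this test in limma (0 also at an unadjusted p under 0.05). Single libraries moved these values: without library 6 they were 1.22 and 2.02, and without library 4 that of Mt1 was 3.82. These comparisons share their uninfused libraries with those at 30 µg/d, where Mt1 differed by −1.03 in Gcg KO (adjusted p = 0.737) and by −0.39 in WT (0.972). Without libraries 4 and 13 the former turned to 0.39 and that of Mt2 from −0.31 to 0.87. The genotypes' responses to 30 µg/d differed by −0.64 ± 1.34 for Mt1 (adjusted p = 0.918), and 0 members were called or had an unadjusted p under 0.05, against 0.00863% of tested genes called.

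Ordered by mean, Mt1 ran from 31.0 RPKM in Gcg KO at 30 µg/d through 164 ± 230 in uninfused Gcg KO, 325 ± 81.4 in uninfused WT, 332 ± 284 in WT at 30 µg/d and 709 ± 351 in WT at 150 µg/d to 1010 in Gcg KO at 150 µg/d. Each group overlapped its neighbour in this order. Mt2 ran from 13.1 ± 5.82 in Gcg KO at 30 µg/d through 34.04 ± 38.95 in uninfused Gcg KO, 158 ± 149.5 in WT at 30 µg/d, 181 ± 99.9 in uninfused WT and 387 ± 257 in WT at 150 µg/d to 771 ± 715 in Gcg KO at 150 µg/d, again with overlap between all neighbours. The lowest and highest library differed 184-fold for Mt1 and 1256-fold for Mt2, and the SD within groups was 1.36 and 1.76 log2 units, against a median of 0.164 over all tested genes. Among the tested genes, 99.6% and 99.8% varied less within groups.

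The 2 metallothioneins varied together from library to library, with Pearson's r = 0.971 and Spearman's rho = 0.971 over the 22 libraries on the log2(RPKM + 1) scale. With group means subtracted r was 0.940, and without the 2 libraries farthest from the median of Mt1 (6 and 14) it was 0.959. Mt2 was the nearest gene to Mt1 among 9969 genes with a mean of at least 1 RPKM, followed by Gas6 (r = 0.837), a ligand of TAM receptors, Bin3 (0.815), Pcsk5 (0.808) and Grn (0.804). For Mt2 the list continued with Gas6, then Litaf (0.804), Ctsl (0.789) and Pzp (0.785). Part of these likenesses came from the groups: with group means subtracted r with Mt1 was 0.622 for Gas6, 0.655 for Bin3, 0.509 for Pcsk5 and 0.690 for Grn. Mt1 exceeded Mt2 in all 22 libraries, by a median of 2.27-fold. This ratio was 8.09 in library 20, 7.75 in library 6 and 5.56 in library 4, all Gcg KO, and at most 3.29 elsewhere. The value of library 6 is uncertain, since its Mt2 level of 1.384 RPKM rests on about 8 reads. The transcripts of Mt1 and Mt2 shared 69.8% of aligned bases and 0 stretches of 50 identical bases, so reads of that length can be told apart.

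Of the other metallothioneins, Mt3 and Mt4, which are known from brain and squamous epithelium, were listed at 0 in 21 of 22 libraries. Mtf1 lay between 2.67 ± 0.365 and 3.16 ± 0.439 RPKM in group means and was not called in any comparison; it differed by −0.18 ± 0.091 log2 units (adjusted p = 0.425) between the doses in Gcg KO, where Mt1 rose.

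**Figure D2:**
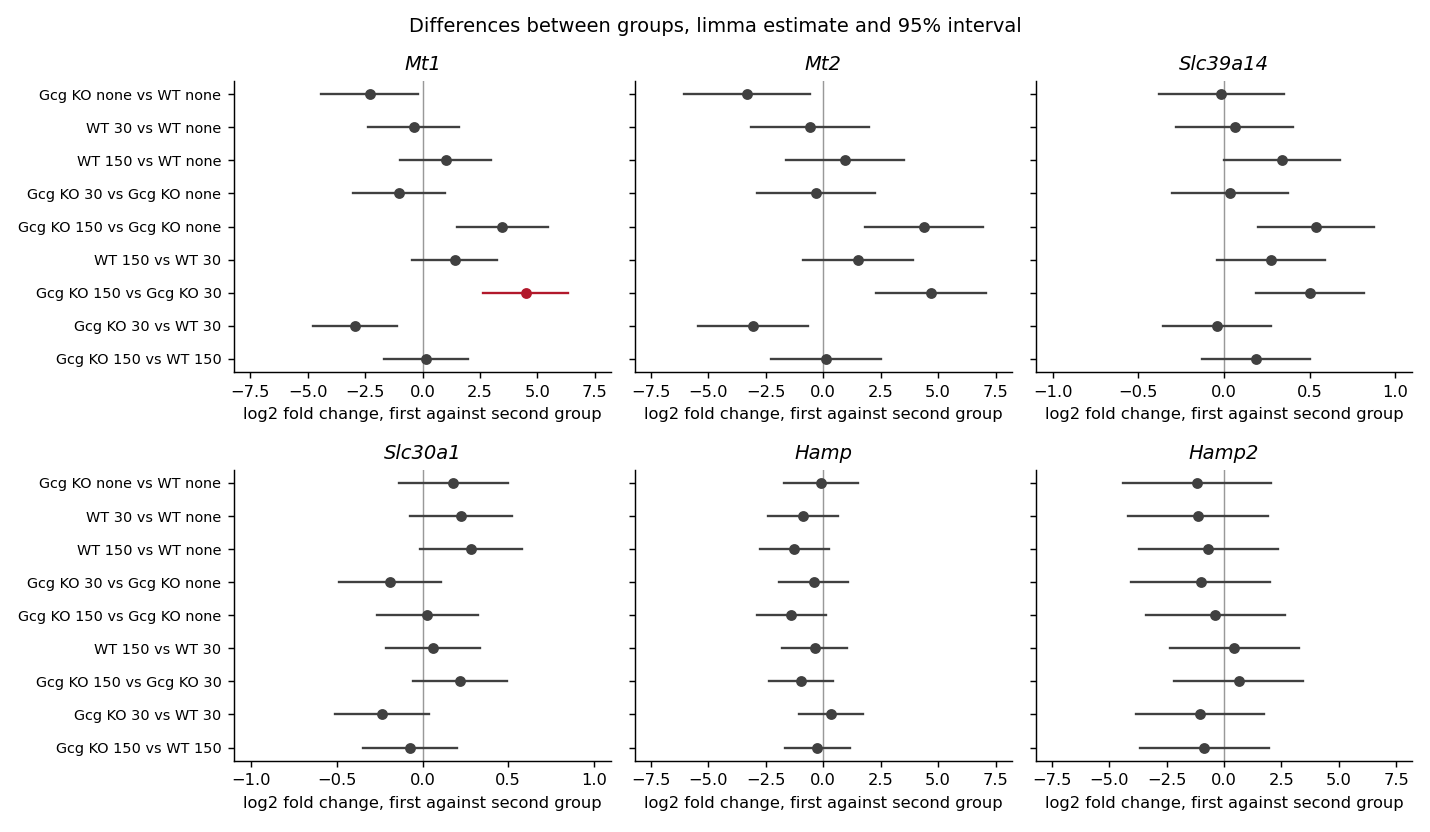
Log2 fold change (x axis) with its 95% interval for each of 9 comparisons between groups (rows) in each of the 6 genes, from limma on log2(RPKM + 1); the x axis is narrower for the 2 zinc transporters. The red point, Mt1 between 150 and 30 µg/d in Gcg KO at 4.49, is the 1 difference that passed the adjusted threshold of 0.05.

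Slc39a14 was the steadier of the genes that were higher with the larger dose. Its group means were 42.1 ± 5.45 RPKM in uninfused Gcg KO, 42.3 ± 1.38 in uninfused WT, 42.9 ± 1.61 in Gcg KO and 44.8 ± 8.27 in WT at 30 µg/d, 54.3 ± 9.83 in WT at 150 µg/d and 62.3 ± 13.5 in Gcg KO at 150 µg/d. Neighbours in this order overlapped. Gcg KO livers were at 41.5, 41.8, 45.0 and 43.4 RPKM at 30 µg/d and at 78.0, 45.4, 60.4 and 65.3 at 150 µg/d, with library 20 again the lowest of its group and all 4 above those at 30 µg/d.

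This difference of 0.50 ± 0.151 log2 units (1.42-fold) had an adjusted p of 0.142 in limma, and that against uninfused Gcg KO, 0.54 ± 0.163 (1.45-fold), one of 0.0844. Both passed without library 20 (0.64, adjusted p = 0.0481, and 0.68, 0.0328) and with array weights (0.48, 0.0414, and 0.56, 0.0265). In WT the larger dose differed from no infusion by 0.34 ± 0.163 (adjusted p = 0.418) and from 30 µg/d by 0.28 ± 0.151 (0.682). Over the 22 libraries Slc39a14 followed Mt1 with r = 0.727 (rho = 0.737; 0.710 with group means subtracted). Its nearest genes were Kng2 (r = 0.812), a kininogen, Grn (0.811), Cyp3a13 (0.808), Pcx (0.795), the mitochondrial pyruvate carboxylase, and F7 (0.774), coagulation factor VII.

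Slc30a1 stayed between 7.22 and 13.98 RPKM in all 22 libraries, and 0 of its comparisons passed the test. In increasing order the group means were 8.16 ± 0.493 in Gcg KO at 30 µg/d, 8.26 ± 0.895 in uninfused WT, 9.46 ± 0.545 in uninfused Gcg KO, 9.69 ± 0.985 in Gcg KO at 150 µg/d, 10 ± 2.733 in WT at 30 µg/d and 10.3 ± 1.715 in WT at 150 µg/d; neighbours in this order overlapped apart from uninfused WT and Gcg KO. The uninfused genotypes did not overlap (7.22, 8.77 and 8.78 RPKM in WT, 8.98, 9.34 and 10.05 in Gcg KO), nor did uninfused Gcg KO and Gcg KO at 30 µg/d (7.69 to 8.74). These differences were 0.18 ± 0.151 (adjusted p = 0.582) and −0.19 ± 0.142 log2 units (0.658). In the second of them 0 of the 6 members were called by limma and 0 had an unadjusted p under 0.05, against 0.0863% of tested genes called, and 1 member did not overlap, against 8.76%. Between the doses in Gcg KO, where Mt1 rose by 4.49, Slc30a1 differed by 0.22 ± 0.131 (95% interval −0.06 to 0.49). Its r with Mt1 was 0.192, and its nearest genes were Cldnd1 (0.822), Mier1 (0.821), Tm9sf2 (0.818), Dsc2 (0.798) and Ash1l (0.788).

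**Figure D3:**
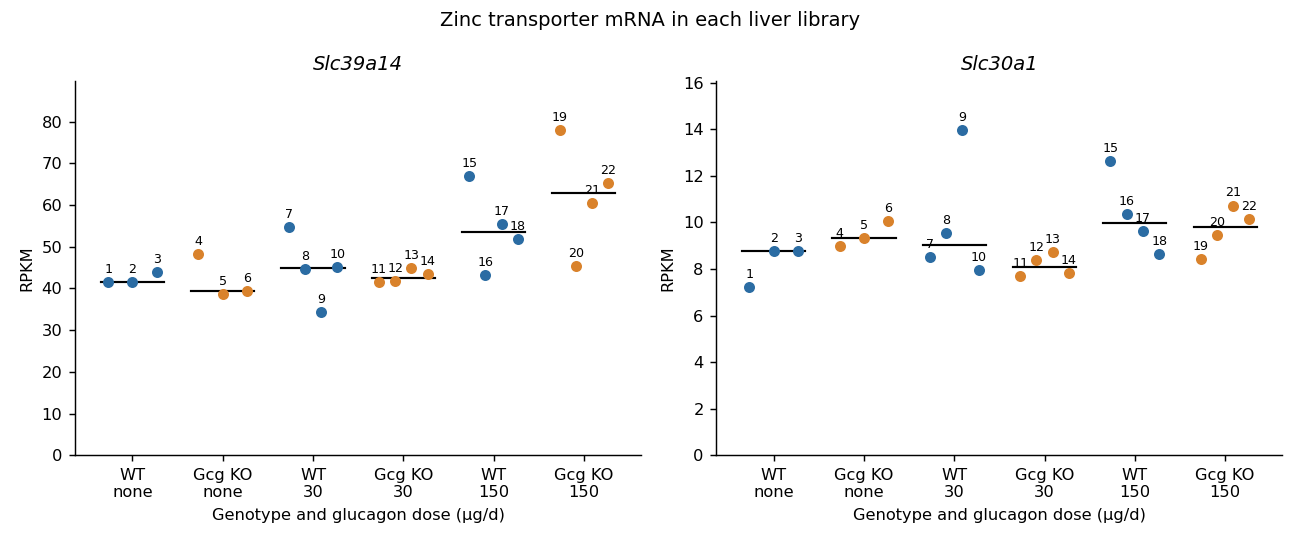
Level of Slc39a14 (left) and Slc30a1 (right) in RPKM on linear axes from 0 in each liver library, by genotype and glucagon dose; blue points are WT, orange points Gcg KO, numbers name the libraries and bars are group medians. For Slc39a14 the Gcg KO libraries at 150 µg/d lie between 45.4 and 78.0 RPKM, above the 41.5 to 45.0 of those at 30 µg/d, while Slc30a1 lies between 7.22 and 13.98 throughout.

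In the rest of the zinc transporter families, only Slc39a1 and Slc39a4 were called, both in 1 comparison. Of 14 Slc39 importers, Slc39a14 among them, 11 were above the filter, and 1 rose and 1 fell in Gcg KO livers at 150 µg/d against uninfused ones, beside 2.72% of tested genes called. Slc39a1, a plasma membrane importer, rose by 0.37 ± 0.094 log2 units (34.2 ± 2.22 to 44.5 ± 4.51 RPKM, adjusted p = 0.0419), and lost its call without library 4 (0.182), 5 (0.0982), 19 (0.0680), 21 (0.107) or 22 (0.118). Slc39a4, the importer known best from the intestine, fell by 0.97 ± 0.210 (29.6 ± 11.4 to 14.2 ± 2.54 RPKM, adjusted p = 0.0208). That call rested on library 4, at 42.8 RPKM: without it the difference was −0.68 (0.127). The median over the 11 importers was 0.00 in this comparison and −0.04 over all tested genes. Of 10 Slc30 genes, Slc30a1 included, 7 were above the filter, and 0 were called in any of the 11 comparisons. Copper genes gave 0 calls among 9 in each comparison.

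Hamp was among the most abundant liver transcripts, with a mean of 791 RPKM and rank 100 of the 11590 tested genes, and it varied widely inside every group. The uninfused libraries held 585.2, 1201 and 1759 RPKM in WT and 2029, 324.2 and 1475 in Gcg KO. At 30 µg/d the values were 775.2, 776.1, 260.1 and 739.3 in WT and 789.0, 1661, 424.6 and 533.2 in Gcg KO. At 150 µg/d they were 811.8, 159.9, 372.6 and 829.0 in WT and 219.4, 981.3, 518.9 and 177.3 in Gcg KO. Both genotypes were lowest on average at 150 µg/d, but the groups overlapped in every comparison.

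From the lowest, the means were 474 ± 371 in Gcg KO and 543 ± 332 in WT at 150 µg/d, 638 ± 252 in WT and 852 ± 560.5 in Gcg KO at 30 µg/d, and 1182 ± 587 in WT and 1276 ± 870 in Gcg KO without infusion. Against uninfused liver, 150 µg/d gave a difference of −1.40 ± 0.721 log2 units in Gcg KO (0.380 of the uninfused level, adjusted p = 0.310) and −1.26 ± 0.721 in WT (0.418, adjusted p = 0.506). Neither passed the test; without library 4 the first was −0.88 and without library 5 −2.20, so 1 library moved it by over 1.5 times either way, and without library 16 the second was −0.77. At 30 µg/d the differences from no infusion were −0.42 in Gcg KO (adjusted p = 0.877) and −0.88 in WT (0.902), and the first turned to 0.09 without library 4. In WT at 30 µg/d against none, 0 of the 6 members were called by limma, 0 had an unadjusted p under 0.05 and 0% of tested genes were called; 0 members were without overlap, against 7.49% of tested genes. For 150 against 30 µg/d in WT the members' counts were 0 by all 3 measures, with 0.00863% of tested genes called and 3.79% without overlap. The genotypes at 150 µg/d also gave counts of 0 by all 3, with 0.0259% called and 1.48% without overlap.

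Hamp2 was far less abundant and varied more, from 2.183 RPKM in library 11 to 212.3 in library 4. Uninfused libraries were at 19.4, 53.9 and 142.2 RPKM in WT and at 212.3, 4.418 and 11.2 in Gcg KO. At 30 µg/d they were at 105.8, 42.6, 3.158 and 18.4 in WT and at 2.183, 6.43, 152.0 and 4.661 in Gcg KO. At 150 µg/d they were at 104.5, 58.6, 7.278 and 23.7 in WT and at 16.2, 119.9, 8.237 and 5.117 in Gcg KO. Libraries of 1 group differed widely, and no comparison separated its groups.

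The group means of Hamp2 ran from 37.4 ± 55.2 RPKM (Gcg KO, 150 µg/d) through 41.3 ± 73.8 (Gcg KO, 30 µg/d), 42.5 ± 45.2 (WT, 30 µg/d), 48.5 ± 43.0 (WT, 150 µg/d) and 71.8 ± 63.3 (uninfused WT) to 76.0 ± 118 (uninfused Gcg KO), with overlap between all neighbours. Its SD within groups, 2.07 log2 units, was above that of 99.9% of tested genes. Its difference between the uninfused genotypes, −1.17 ± 1.55, had an adjusted p of 0.747 and a 95% interval from −4.404 to 2.065; on the linear scale the Gcg KO mean was the higher one. It was −2.74 without library 4 and −0.09 without library 5. Gcg KO livers at 150 µg/d differed from uninfused ones in Hamp2 by −0.38 ± 1.45, and by 1.19 without library 4.

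**Figure D4:**
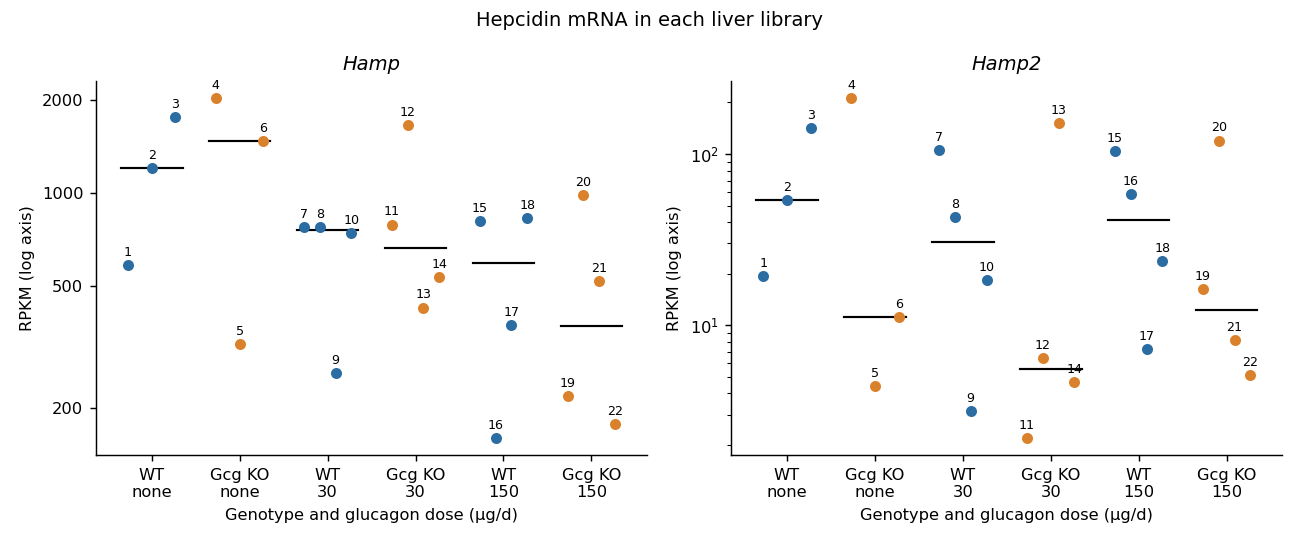
Level of Hamp (left) and Hamp2 (right) in RPKM on log axes in each liver library, by genotype and glucagon dose; blue points are WT, orange points Gcg KO, numbers name the libraries and bars are group medians. Hamp spans 159.9 to 2029 RPKM with overlap between all groups, and library 13 is the highest of its group for Hamp2 (152.0) and the lowest for Hamp (424.6).

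The hepcidins did not follow each other closely, with r = 0.382 and rho = 0.409 over the 22 libraries (0.423 with group means subtracted). Hamp2 made up between 0.276% (library 11) and 26.8% (library 16) of the RPKM of both, with a median of 3.003%. Their transcripts were identical at 388 of 410 aligned bases (94.6%), and 16.6% of the stretches of 50 bases in Hamp also occurred in Hamp2. No source used here gives the counting method, so reads from those stretches may have been divided between the genes, and both levels are uncertain to that extent.

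The gene nearest to Hamp among 9969 was Atoh8, a transcription factor known as a BMP-SMAD target that binds the hepcidin promoter, with r = 0.845 (0.789 with group means subtracted). Atoh8 was at 8.73 RPKM in library 4, 7.52 in library 12 and 6.26 in library 3, the libraries with 2029, 1661 and 1759 RPKM of Hamp, and at 1.69 in library 16, where Hamp was lowest. Some libraries departed from this order. Library 20, with 981.3 RPKM of Hamp, had 2.62 of Atoh8, while library 18, with 829.0, had 5.11. Lipt1 (0.775), Prpf40b (0.750), Orc2 (0.739) and Zfp433 (0.734) came next. Other readouts of BMP-SMAD signals in the chosen list were less alike: Smad7, the inhibitory SMAD, had r = 0.626 with Hamp, and Id1 had 0.491.

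Of 19 genes of the BMP-SMAD and HFE arm, 18 were above the filter. Of these, 2 fell in Gcg KO livers at 150 µg/d against uninfused ones, beside 2.72% of tested genes called. None were called in the other 10 comparisons. Id1, a BMP target, fell by 1.55 ± 0.323 log2 units (8.08 ± 7.09 to 1.59 ± 0.419 RPKM, adjusted p = 0.0165). Its call rested on library 4, at 16.25 RPKM, without which the difference was −0.95 (0.0711). Acvr1, a type I BMP receptor, fell by 0.48 ± 0.113 (6.20 ± 0.902 to 4.14 ± 0.450 RPKM, adjusted p = 0.0297), and lost its call without library 4 (0.0593), 5 (0.0643), 6 (0.0911), 21 (0.0902) or 22 (0.0877). In the same comparison Smad7 differed by −0.53 ± 0.224 (adjusted p = 0.214), Atoh8 by −0.70 ± 0.327 (0.261), the ligand Bmp6 by −0.02 ± 0.118 (0.941) and the protease Tmprss6 by −0.10 ± 0.089 (0.594). The list's median was −0.10, against −0.04 over all tested genes. Of 15 genes of iron uptake, storage and export 14 were above the filter, and 0 were called in any comparison; the exporter Slc40a1, the target of hepcidin, was at 44.4 ± 15.1 RPKM in Gcg KO at 150 µg/d and 51.5 ± 5.87 in uninfused Gcg KO.

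Hamp2 was nearest to Slco1a4 (r = 0.867, also with group means subtracted), a hepatic organic anion transporter, then Gsta2 (0.851), Zadh2 (0.833) and Pmf1 (0.824). It ran against the male-biased genes, the list in which libraries 4 and 13 stood apart. With the mean of these 16 genes Hamp2 had r = −0.666 and rho = −0.654, −0.582 without those 2 libraries and −0.809 with group means subtracted. Library 4 had the lowest list mean (4.22 log2 units) with 212.3 RPKM of Hamp2, and library 13 the next (5.69) with 152.0, while library 11 had the highest (8.79) with 2.183. For the other 5 members r with this list was −0.205 for Mt1, −0.1 for Mt2, −0.255 for Slc39a14, −0.118 for Slc30a1 and −0.174 for Hamp, but these values rested on libraries 4 and 13. Without them r was −0.580 for Mt1, −0.519 for Mt2, −0.568 for Slc39a14, −0.392 for Slc30a1 and 0.102 for Hamp. By this measure 3 of the members came near Hamp2. With group means subtracted they did not, but over all 22 libraries, with 4 and 13 back in. There r was −0.523 for Mt1, −0.348 for Mt2, −0.363 for Slc39a14, −0.068 for Slc30a1 and −0.201 for Hamp, against −0.809 for Hamp2. These values were not computed without libraries 4 and 13, so whether the relation is particular to Hamp2 was not tested. The relation was looked for after the values of Hamp2 had been seen, and its part in the differences between groups was not tested.

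**Figure D5:**
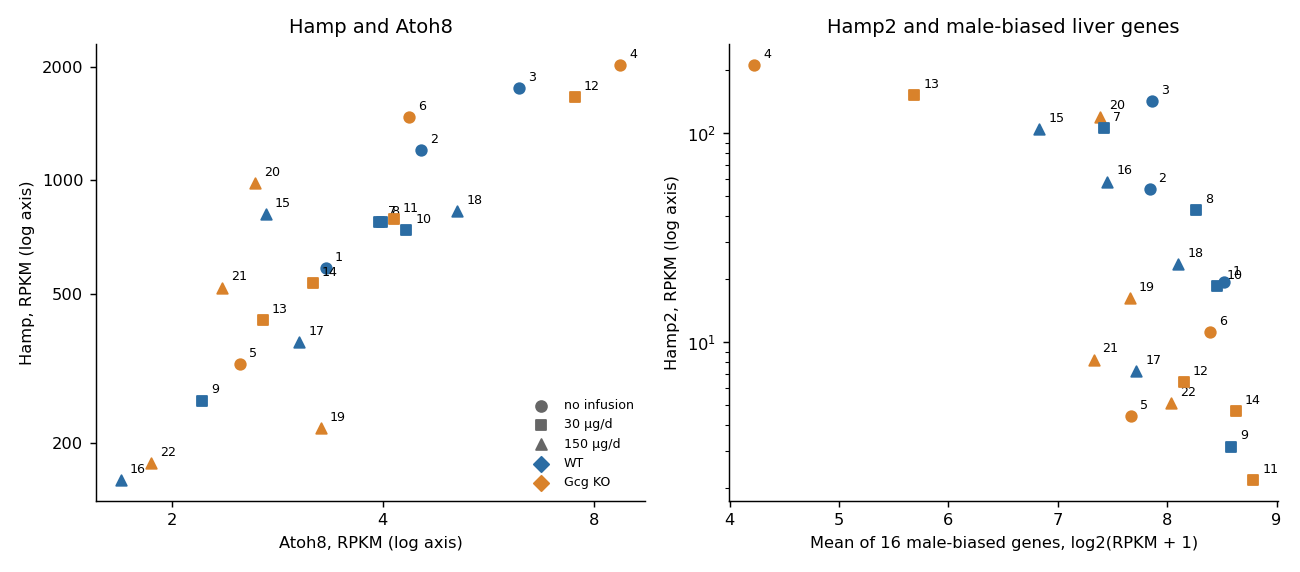
Left, Hamp against Atoh8 in RPKM on log axes; right, Hamp2 in RPKM on a log axis against the mean log2(RPKM + 1) of 16 male-biased liver genes; each point is a library, with its number, colour for genotype and shape for glucagon dose. Libraries with more Hamp tend to have more Atoh8 (r = 0.845), and libraries with more Hamp2 tend to have a lower male-biased mean (r = −0.666), with 4 and 13 at the far left.

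Some genes of the signals known to act on metallothionein and hepcidin promoters were called in Gcg KO at 150 µg/d. They were called against 30 µg/d, where Mt1 was the only member called, or against no infusion, where 0 of the 6 members were. The hepcidins were not called in any comparison, and a link between these genes and the members was not tested. In the list of interleukin 6, Stat3 and acute phase genes, 25 of 25 were above the filter. Of these, 2 rose between 150 and 30 µg/d in Gcg KO and 2 between 150 µg/d and no infusion, and none fell. Over all tested genes 0.544% and 2.72% were called in these comparisons. Stat3 rose by 0.76 ± 0.124 log2 units between the doses (24.1 ± 1.98 to 41.8 ± 5.34 RPKM, adjusted p = 0.00772) and by 0.83 ± 0.133 against no infusion (0.00373), and kept these calls whichever single library was left out.  Itih4, a plasma protein of the acute phase, rose by 0.98 ± 0.218 between the doses (adjusted p = 0.0464), which passed in 1 of the 8 fits without 1 library, that without library 20 (1.22). Orm2, an orosomucoid, rose by 4.01 ± 1.07 against no infusion (adjusted p = 0.0494), which passed in 1 of the 7 such fits, again that without library 20 (4.97). The list's median in Gcg KO was 0.76 between the doses and 0.58 against no infusion, beside −0.02 and −0.04 over all tested genes. In WT it was 0.198 between the doses and 0.405 for 150 µg/d against no infusion, with 0 of the list called.

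Library 20, low in both metallothioneins and in Slc39a14, was also low in 2 of these genes: Saa1, serum amyloid, was at 169.4 RPKM there and at 3784 to 8245 in the other 3 libraries of its group, and Orm2 at 65.3 against 537.8 to 1489. Its Stat3 level of 34.6 RPKM was the lowest of its group. Among the uninfused Gcg KO livers, library 6, with the lowest Mt1, held 536.5 RPKM of Saa1 and library 4, with the highest Mt1, held 46.4. Over the 22 libraries Mt1 had r = 0.606 with Saa1 and 0.706 with Orm2, which fell to 0.274 and 0.247 with group means subtracted. Slc39a14 had r = 0.659 with Stat3 (0.131 with group means subtracted), and Hamp had −0.450 with Saa1 (−0.301).

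Of 11 genes of the glucocorticoid response 1 rose and 1 fell in Gcg KO livers at 150 µg/d against uninfused ones. Over all tested genes 2.72% were called there. In the other comparisons 0 of the list were called. The list's median was 0.38 against no infusion but −0.44 between the doses in Gcg KO, beside −0.04 and −0.02 over all tested genes. Tat, tyrosine aminotransferase, rose by 2.004 ± 0.41 (211 ± 50.6 to 899 ± 386 RPKM, adjusted p = 0.0161), a call that ended without library 4 (0.0731), 5 (0.0580) or 21 (0.0511). Hsd11b1, which regenerates active glucocorticoid, fell by 0.69 ± 0.143 (357 ± 38.0 to 221 ± 18.7 RPKM, adjusted p = 0.0165), a call that ended without library 4 (0.0823), 5 (0.0627) or 22 (0.0580). Of 11 oxidative stress genes, the targets of Nrf2, 9 were above the filter and Gclm fell, by 0.38 ± 0.1 (adjusted p = 0.0461), in 1 comparison, the same one; the call held in 0 of the 7 fits without 1 library. None of the calls named for Slc39a1, Slc39a4, Id1, Acvr1, Stat3, Orm2, Itih4, Tat, Hsd11b1 and Gclm held with the groups compared fitted alone (adjusted p from 0.0746 to 0.2235).

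Markers of other cells were called in Gcg KO at 150 µg/d against no infusion and against 30 µg/d, and between the uninfused genotypes. Of these comparisons, only that of the doses held a called member, Mt1. Of 12 markers of sinusoidal endothelial cells, which make BMP ligands in liver, 4 (Pecam1, Cdh5, Tek and Tie1) fell in Gcg KO livers at 150 µg/d against uninfused ones (median −0.34), beside 2.72% of tested genes called. Of these calls that of Tek held in 7 of 7 fits without 1 library. Pecam1 and Cdh5 held in 2 of 7, both being lost without library 4, 5, 20 or 22, Pecam1 also without 6 and Cdh5 without 21 (adjusted p up to 0.122 and 0.103). Tie1 held in 3 of 7, being lost without library 4, 5, 21 or 22 (up to 0.0680). Tie1 also fell between the doses (list median −0.21, beside 0.544% of tested genes called), which held in 3 of 8 fits and ended without library 11, 12, 14, 21 or 22 (up to 0.121). Between the uninfused genotypes 5 of the 12 (Pecam1, Stab2, Lyve1, Cdh5 and Tek) were called, all higher in Gcg KO (median 0.36), beside 1.54% of tested genes called. All 5 lost this call without library 2, 3 or 4, and of 6 such fits it held in 2 for Cdh5 and Lyve1, 1 for Pecam1 and Stab2 and 0 for Tek. With the groups compared fitted alone, none of these endothelial calls held. The summed level of these markers was 126.2 to 140.6 RPKM in uninfused WT and 171.7 to 175.1 in uninfused Gcg KO. In Gcg KO it was 139.6 to 177.6 at 30 µg/d and 135.1 to 157.5 at 150 µg/d. In WT it was 133.1 to 162.3 and 134.5 to 154.7 at these doses.

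Of the markers of Kupffer cells, stellate cells, cholangiocytes, lymphocytes and neutrophils, erythroid cells and hepatocytes, 0 were called in any comparison. For 3 of these lists the summed levels did not overlap between the uninfused genotypes. Among single tested genes 24.8% did not overlap in this comparison. The 12 Kupffer cell markers summed to 235.4 to 317.5 RPKM in uninfused WT and 350.9 to 373.2 in uninfused Gcg KO. In Gcg KO they summed to 283.0 to 342.6 at 30 µg/d and 226.7 to 398.6 at 150 µg/d. Infused WT livers, at 208.4 to 444.1 and 274.1 to 401.8 at these doses, reached above the range of uninfused Gcg KO. The 12 stellate cell markers summed to 94.65 to 107.0 RPKM in uninfused WT and 131.0 to 133.4 in uninfused Gcg KO. At 30 and 150 µg/d they summed to 122.5 to 145.2 and 130 to 137.6 in Gcg KO. In WT these sums were 94.34 to 126.8 and 108.2 to 127.6. The 6 cholangiocyte markers summed to 16.4 to 32.8 RPKM in uninfused WT and 60.3 to 177.2 in uninfused Gcg KO. At 30 and 150 µg/d they summed to 32.54 to 214.5 and 23.0 to 98.8 in Gcg KO. In WT these sums were 18.2 to 31.1 and 19.5 to 67.7. Most of the cholangiocyte sum was Spp1, at 19.8 ± 9.42 RPKM in uninfused WT and 118 ± 58.1 in uninfused Gcg KO. In whole liver, fewer cells of a type and less RNA per cell cannot be told apart, and the part of these markers in the results was not tested.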

How the data were processed

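Liver RNA was extracted with Trizol, selected for polyadenylated messages and made into strand-specific libraries, per the labels' protocols. The authors deposited 1 table of RPKM per gene; CASAVA 1.8.2, FastQC and the build GRCm38 are named in the submitters' processing notes, while an aligner, counter or annotation is not given in the sources used here. Since RPKM are not counts, limma 3.58.1 (R 4.3.3) was fitted to log2(RPKM + 1) over all 22 libraries and 6 groups, with a mean of at least 0.5 RPKM (11590 genes), a variance trend, 16 residual and 3.18 prior degrees of freedom, and Benjamini-Hochberg adjustment over all genes; a call is an adjusted p under 0.05. There were 11 comparisons, 2 of them differences between the genotypes' responses. Whole reads could be recovered for only 64.5 to 70.6% of low values (within 0.1 read), so no count test was run. The script was tested on simulated data. The members, gene lists and tests were chosen with earlier results of these data known. Genes named were the 6 members, list genes called in a comparison or known as regulators of a member, and the 5 genes of highest r to each member, of which 1 is not reported here. Alternatives were 2 other pseudocounts (0.1 and 0.5), no filter and a filter at 2 RPKM, median-of-ratios and quantile scaling, array weights, the compared groups alone, and libraries left out. Sequences are from RefSeq tables of GRCm38.p6 (24375 of 24475 gene IDs matched; 5 of 6 members had a promoter window) and GENCODE M21 transcripts, aligned with Biopython 1.88. Figures were drawn with matplotlib 3.10.9 (Python 3.11.15).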

Additional observations from a re-analysis of the deposited data

Results flagged for a closer look

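In groups of 4 libraries, a value was marked where its gap to the nearest other library was a large share of the group's range. This was Dixon's test at 95%, run on RPKM and not on the log scale. Of 24 groups tested, 4 were marked. Chance marks about 5% only where values are normally distributed, which was not tested for RPKM. No excess over chance can therefore be read from the count. Whether the marks hold on the log scale was not tested. Mt2 in library 12 (Gcg KO, 30 µg/d) was at 21.81 RPKM, above the 9.877 to 10.63 of the other 3. Hamp in library 9 (WT, 30 µg/d) was at 260.1 RPKM, below the 739.3 to 776.1 of the others. Hamp2 in library 13 (Gcg KO, 30 µg/d) was at 152 RPKM against 2.183 to 6.43, and Hamp2 in library 20 (Gcg KO, 150 µg/d) at 119.9 against 5.117 to 16.23. Libraries 13 and 20 ranked 2 and 5 from the lowest in the mean of the male-biased genes.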

How the results depend on the processing

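The paragraph gives log2 differences and counts of genes called, with alternatives changed 1 at a time; comparisons are written with the first group against the second, and the cause of each change was not tested. Of the members' values under alternatives other than the loss of 1 library, 573 kept their direction and side of the threshold, 6 passed it, 2 no longer did and 13 turned. With a pseudocount of 0.1, 8 genes were called for WT at 150 µg/d against none, 0 for WT at 150 against 30 µg/d (0 with 0.5 too) and 1 for the genotypes at 150 µg/d. With no filter the counts were 17 and 5 for those WT comparisons, 39 for Gcg KO at 150 against 30 µg/d, 14 for the genotypes at 30 µg/d and 2 for their difference in response to 30 µg/d. Slc39a14 turned to 0.002 in that difference under median-of-ratios scaling and to 0.043 between uninfused genotypes under quantile scaling. Array weights gave 945 calls between uninfused genotypes, 4 and 438 for WT at 30 and 150 µg/d against none, 21 and 770 for Gcg KO likewise, 12 and 541 between doses in WT and Gcg KO, 86 between genotypes at 30 µg/d, and 11 and 66 for the differences in response to 30 and 150 µg/d. They turned Hamp to 0.344 in Gcg KO at 30 µg/d against none and to 0.856 in the difference in response to 150 µg/d, and Hamp2 to 0.333 in Gcg KO at 150 µg/d against none. Groups fitted alone gave 1 call for WT at 30 µg/d, 1 and 1 for Gcg KO at 30 and 150 µg/d against none, 3 and 0 between doses in WT and Gcg KO, 12 and 0 between genotypes at 30 and 150 µg/d, and 0 for the difference in response to 30 µg/d. Without libraries 4 and 13 the counts were 22 between uninfused genotypes, 3 and 93 for Gcg KO at 30 and 150 µg/d against none, 5 and 201 between doses in WT and Gcg KO, and 0 for the difference in response to 30 µg/d. In Gcg KO at 30 µg/d against none Mt1 then turned to 0.388, Mt2 to 0.871 and Hamp to 0.359, and at 150 µg/d Slc30a1 to −0.005 and Hamp2 to 1.189. In the difference in response to 30 µg/d Mt1 turned to 0.777 and Slc39a14 to 0.052, and Hamp to 0.379 in that to 150 µg/d.

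With single libraries left out, the calls ranged from 9 to 294 between uninfused genotypes, from 0 to 0 and 0 to 48 for WT at 30 and 150 µg/d against none, from 1 to 33 and 61 to 585 for Gcg KO likewise, from 0 to 4 and 10 to 282 between doses in WT and Gcg KO, from 9 to 45 and 0 to 4 between genotypes at 30 and 150 µg/d, and from 0 to 3 and 0 to 5 for the differences in response to 30 and 150 µg/d. Members crossed 0 as follows, doses named alone being against no infusion. Mt1 ranged from −0.906 to 0.115 for WT at 30 µg/d, −2.257 to 0.341 for Gcg KO at 30 µg/d, −0.340 to 0.929 between genotypes at 150 µg/d and −1.868 to 0.730 in the response difference at 30 µg/d. Mt2 ranged from −1.714 to 0.804 for Gcg KO at 30 µg/d, −0.672 to 1.519 between genotypes at 150 µg/d and −1.149 to 1.369 in the response difference at 30 µg/d. Slc39a14 ranged from −0.116 to 0.043 between uninfused genotypes, −0.038 to 0.179 for WT at 30 µg/d, −0.023 to 0.136 for Gcg KO at 30 µg/d, −0.159 to 0.058 between genotypes at 30 µg/d and −0.144 to 0.074 in the response difference at 30 µg/d. Slc30a1 ranged from −0.018 to 0.087 for Gcg KO at 150 µg/d, −0.036 to 0.217 between doses in WT and −0.149 to 0.019 between genotypes at 150 µg/d. Hamp ranged from −0.633 to 0.688 between uninfused genotypes, −1.228 to 0.093 for Gcg KO at 30 µg/d, −0.768 to 0.112 between doses in WT, −0.051 to 0.604 between genotypes at 30 µg/d, −0.747 to 0.105 between genotypes at 150 µg/d, −0.349 to 0.972 in the response difference at 30 µg/d and −0.942 to 0.379 in the response difference at 150 µg/d. Hamp2 ranged from −1.397 to 0.010 for WT at 150 µg/d, −2.239 to 0.558 for Gcg KO at 30 µg/d, −1.460 to 1.189 for Gcg KO at 150 µg/d, −0.416 to 1.145 between doses in WT, −0.271 to 1.856 between doses in Gcg KO, −1.107 to 1.690 in the response difference at 30 µg/d and −0.771 to 1.879 in the response difference at 150 µg/d.

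No paired analysis was possible because the running numbers in the labels are unique to a library. Depth limits the lowest values of Mt2 and Hamp2, which rest on about 8 and 10 reads. With 3 or 4 libraries a group and a spread of over 1 log2 unit within groups, intervals for Mt1, Mt2, Hamp and Hamp2 spanned several log2 units, so moderate differences were not detectable.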
